A study of Bos taurus with 6 samples.

Results

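The genes described here are 36 genes of homologous recombination and of the Fanconi anaemia pathway, measured by RNA sequencing in cultured epithelial cells of the bovine mammary gland, the cell type that makes milk. They were taken by symbol from a table of 28200 rows, each symbol stood on 1 row, and all 36 are marked as protein coding and passed the filter on low counts. There were 3 libraries of KLF6 knockout cells and 3 of wild-type cells, all from primary cells of Holstein cattle. In the knockout cells the gene for KLF6, a zinc-finger transcription factor, had been disrupted with CRISPR/Cas9, and the wild-type cells carried no stated edit. Whether a genotype's libraries stem from different cultures, or the knockout from 1 edited clone, is not stated in the labels, so p-values measure only the spread among 3 libraries, and that spread may be technical. The question put here is how the repair transcripts stand in cells with disrupted KLF6.

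Homologous recombination repairs a broken chromosome by copying the intact sister strand, so it works in cells that are replicating or have replicated their DNA. Broken ends are trimmed to single strands, RPA coats them, and the BRCA proteins help to replace RPA with the filament that searches for the intact copy. The Fanconi pathway recognises DNA strands that are chemically linked to each other, marks the site with ubiquitin and hands it to the same recombination proteins. Many of these genes are known, mainly from human and mouse cells, to be transcribed most in the S phase, and inherited loss of several of them raises the risk of breast cancer in humans.

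Total counts ranged from 17512892 to 18724879 per library. Wild-type replicate 3 stood apart from the other wild-type libraries. Without it 20 of the 36 genes rose and 8 fell, the same numbers as with it. Over all genes tested, 5115 rose and 5019 fell without it, against 4963 and 5028 with it. KLF6 itself stood at 224, 230.1 and 217 CPM in knockout libraries, against 503, 496 and 558 CPM in wild-type libraries, where CPM is counts per 1000000 counts of the scaled library. It was 2.32-fold lower, so its transcript was reduced but still present. The epithelial markers KRT8, KRT18, KRT19, KRT5, KRT14, EPCAM and CDH1 summed to 6416 to 6618 CPM in knockout libraries, against 15811 to 17096 CPM in wild-type libraries, and 1 of the 7 was higher and 4 were lower. Of 5 casein and alpha-lactalbumin genes, 4 had no reads in knockout libraries and 5 had none in wild-type libraries. The 8 fibroblast markers summed to 245 to 258 CPM in knockout libraries, against 1054 to 1250 CPM in wild-type libraries, and 1 was higher and 4 lower of 6 tested. The log2 fold changes (knockout over wild type) of those tested ran from -2.31 to 9.55. In wild-type libraries 2 of the 8 had no reads. The 4 endothelial markers summed to 30.6 to 32.5 CPM in knockout libraries, against 3.64 to 4.70 CPM in wild-type libraries, with KDR at 0 in both genotypes. Only 2 of these were tested, of which 1 was higher (7.11 on the log2 scale) and 1 lower (-3.85), so they did not move together. The part of these shifts in the results below was not tested, and in bulk samples fewer cells of a type and less RNA per cell cannot be told apart.

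Most of the 36 genes were higher in knockout cells, though by moderate amounts, and a smaller number were lower. Among those that rose were BRCA1 and its partners BARD1 and PALB2, the FANCD2 and FANCI pair, 6 of 8 core Fanconi genes, and the small RPA subunits RPA2 and RPA3. Among those that fell were the break-sensing genes ATM and NBN, the paralogue genes RAD51D and RAD51B, and BRCA2. By edgeR's quasi-likelihood test with Benjamini-Hochberg adjustment over all 13390 genes tested, 20 of the 36 rose (55.6%) and 8 fell (22.2%), while 8 did not pass at an adjusted p of 0.05. Over all genes tested, 74.6% passed, 37.1% higher and 37.6% lower, and whether the shares of the 36 genes differ from these was not tested.

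The median log2 fold change (knockout over wild type) of the 36 genes was 0.32, a 1.25-fold rise, beside -0.01 over all genes tested. Their values ran from -1.18 for RAD51D to 1.36 for FANCB. Changes of at least 2-fold were seen for 6 genes that rose, beside 10.8% of all genes tested, and for 1 gene that fell, beside 11.5%. The 3 knockout libraries lay wholly above the 3 wild-type libraries for 20 genes, beside 37.9% of all genes tested, and wholly below for 9, beside 38.3%. Summed over the 36 genes, the level was 1138 to 1155 CPM in knockout libraries and 846 to 912 CPM in wild-type libraries, so the sums did not overlap. Of these sums, the 3 RPA genes held 266 to 269 CPM in knockout libraries and 156 to 168 CPM in wild-type libraries. With scaling by library size only, the median of the 36 genes was 0.27 and that of all genes -0.06.

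**Figure D1:**
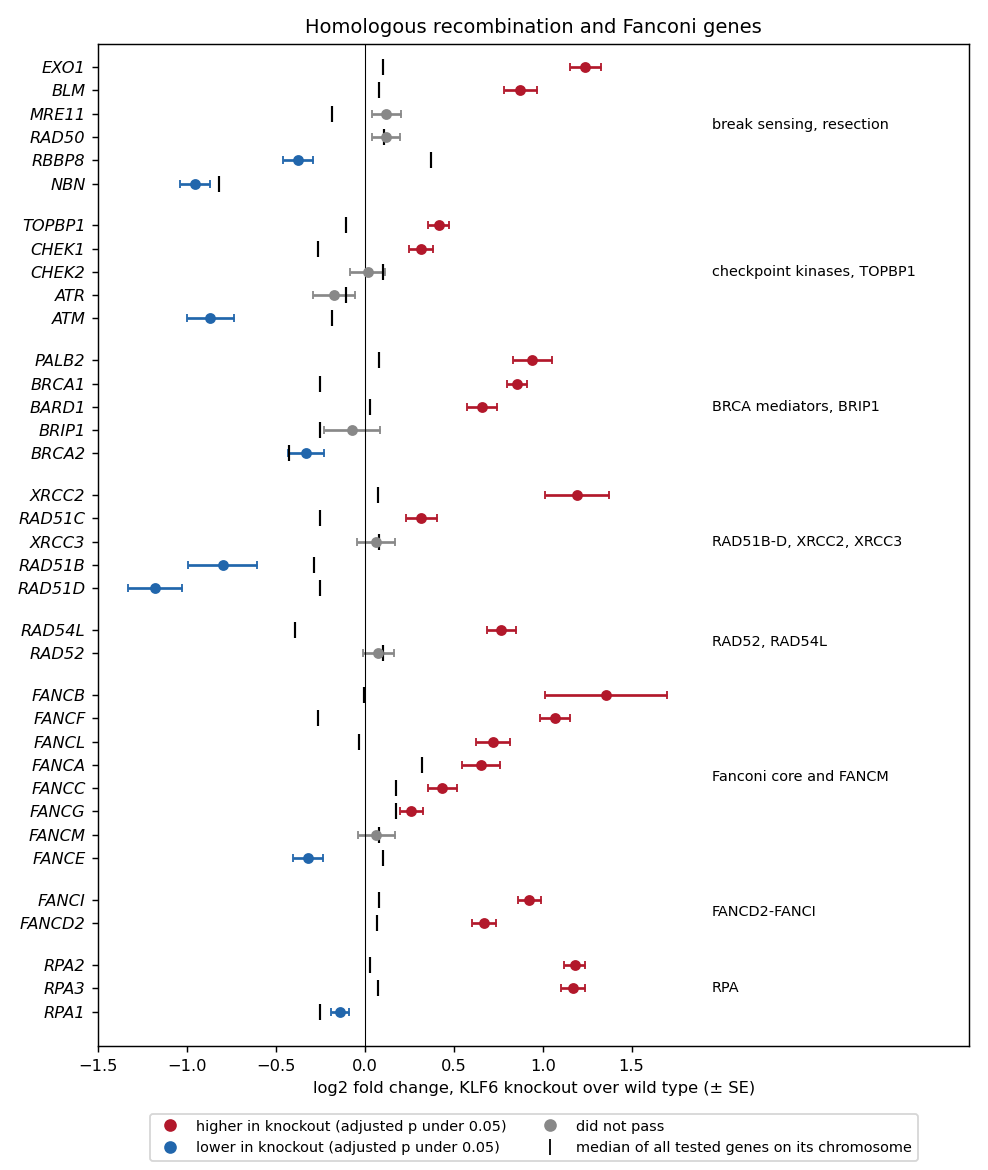
Log2 fold change of each of the 36 genes (horizontal axis, knockout over wild type, points with SE), grouped by role down the page; red points rose, blue points fell and grey points did not pass, and a black tick gives the median of all tested genes on the same chromosome. The values run from -1.18 (RAD51D) to 1.36 (FANCB), and most groups hold genes on both sides of 0.

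The BRCA mediators rose together except for BRCA2 and BRIP1. BRCA1, a ubiquitin ligase that directs breaks towards recombination (ENSBTAG00000022520, chromosome 19, 43069372 to 43139018 as the deposited table gives it), stood at 71.5, 74.6 and 71.6 CPM in knockout libraries, against 40.2, 39.9 and 40.3 CPM in wild-type libraries. The genotypes lay far apart with little spread, and the log2 fold change was 0.85 ± 0.06 (SE; edgeR adjusted p = 1.52e-10). BARD1, the obligate ring-finger partner of BRCA1, had 22.7, 24.7 and 23.2 CPM in knockout libraries, against 14.96, 15.4 and 14.3 CPM in wild-type libraries. It rose by 0.66 ± 0.08 on the log2 scale (edgeR adjusted p = 9.94e-07). PALB2, which bridges BRCA1 and BRCA2, was at 15.3, 14.9 and 15.05 CPM in knockout libraries, against 8.13, 8.52 and 6.88 CPM in wild-type libraries. Its rise of 0.94 ± 0.11 (edgeR adjusted p = 3.47e-07) was the largest of the 5 genes in this group.

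BRCA2, which helps to build the filament on single-stranded DNA (ENSBTAG00000000988, chromosome 12, 28616747 to 28667820), went the other way. It stood at 11.9, 11.9 and 12.5 CPM in knockout libraries, against 13.9, 16.8 and 15.03 CPM in wild-type libraries. The libraries did not overlap, and BRCA2 fell by 0.33 ± 0.10 on the log2 scale (edgeR adjusted p = 0.00616). The 230 tested genes of chromosome 12 had a median log2 fold change of -0.43, and with the chromosome medians taken out BRCA2 stood at 0.09 (adjusted p = 0.413, the highest of 14 alternatives, which began at 0.00235). BRIP1, a helicase that binds BRCA1, averaged 6.16 ± 0.718 CPM in knockout libraries and 6.49 ± 1.17 CPM in wild-type libraries, and did not pass the test (-0.07 ± 0.15, edgeR adjusted p = 0.683).

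**Figure D2:**
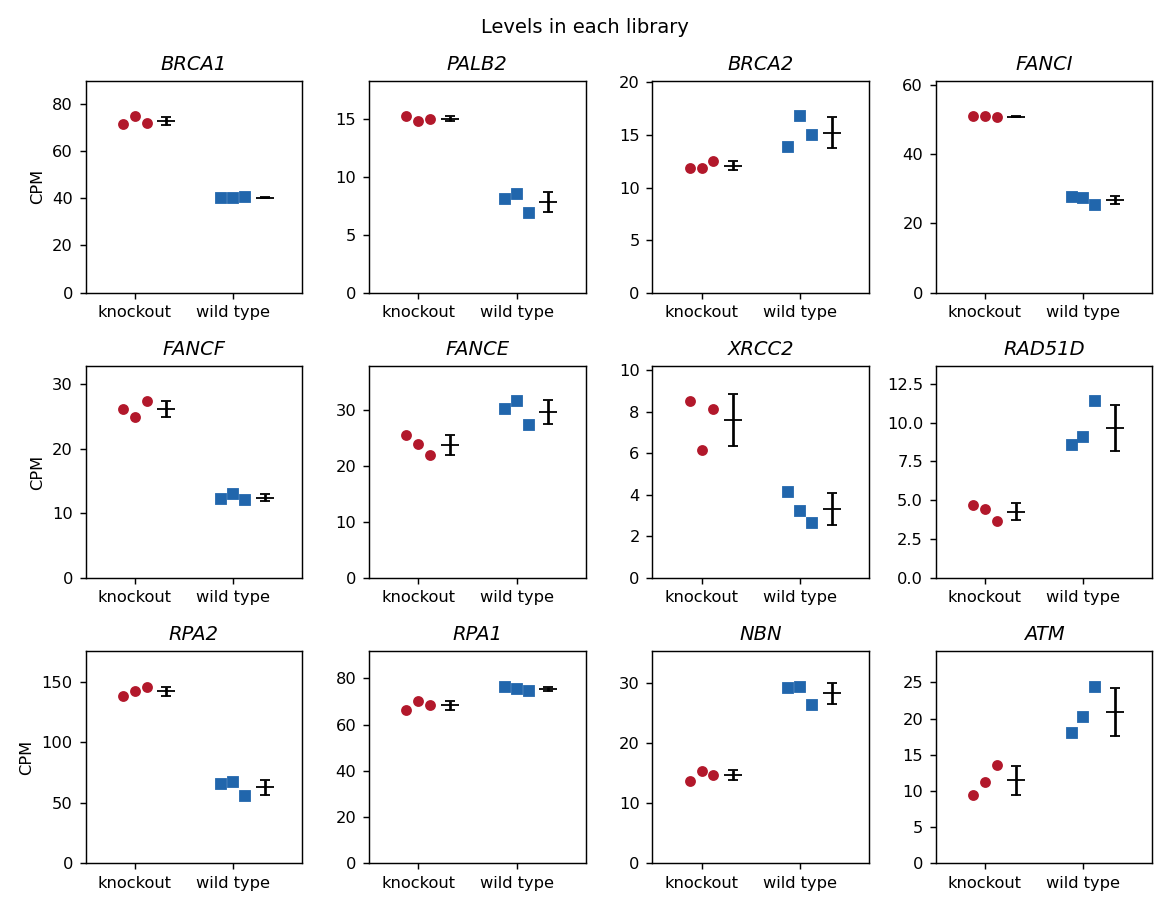
Level in CPM (vertical axes from 0) of 12 of the genes in each library, knockout (red circles) left of wild type (blue squares), with the mean and SD of each genotype in black (n = 3). In each panel the 3 knockout libraries lie wholly on one side of the 3 wild-type libraries, with BRCA1 between 71.5 and 74.6 CPM in knockout and between 39.9 and 40.3 CPM in wild type.

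RAD51B, RAD51C, RAD51D, XRCC2 and XRCC3, a family of paralogues that helps the strand-exchange filament to form and last, split in both directions. RAD51D (ENSBTAG00000019082, chromosome 19, 14978195 to 14991205) had the largest fall of the 36 genes, with 4.71, 4.40 and 3.68 CPM in knockout libraries, against 8.58, 9.06 and 11.4 CPM in wild-type libraries. That is a log2 fold change of -1.18 ± 0.15 (edgeR adjusted p = 1.20e-06). XRCC2, which binds RAD51D directly, stood at 8.49, 6.14 and 8.14 CPM in knockout libraries, against 4.12, 3.21 and 2.62 CPM in wild-type libraries, and rose by 1.19 ± 0.18 (edgeR adjusted p = 8.89e-06). These binding partners thus moved in opposite directions by similar amounts, with no overlap between genotypes in either gene.

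RAD51B, which joins the same complex through RAD51C, had only 35 to 42 reads in a knockout library, against 61 to 79 in a wild-type library. It fell by 0.80 ± 0.19 on the log2 scale (edgeR adjusted p = 0.00123). RAD51C, the paralogue shared by both complexes of the family, averaged 23.3 ± 1.03 CPM in knockout libraries and 18.7 ± 1.83 CPM in wild-type libraries (0.32 ± 0.09, edgeR adjusted p = 0.00323). XRCC3, its partner in the second complex, did not pass, at 15.02 ± 0.719 CPM in knockout libraries and 14.4 ± 2.20 CPM in wild-type libraries (0.06 ± 0.11, edgeR adjusted p = 0.618).

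Of the 2 genes of annealing and strand invasion, RAD54L, a motor protein that helps the filament invade the intact strand, rose. It had 32.6, 33.5 and 33.0 CPM in knockout libraries, against 19.6, 21.2 and 17.4 CPM in wild-type libraries (0.77 ± 0.08, edgeR adjusted p = 1.19e-07). The median of all tested genes on its chromosome 3 was -0.39. RAD52, which anneals single strands, averaged 21.1 ± 1.66 CPM in knockout libraries and 20.1 ± 1.03 CPM in wild-type libraries, and its libraries overlapped (0.08 ± 0.09, edgeR adjusted p = 0.437).

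RPA, the trimer that coats single-stranded DNA, changed unevenly across its subunits. RPA2 had 138, 142 and 146 CPM in knockout libraries, against 65.5, 67.2 and 55.8 CPM in wild-type libraries (1.18 ± 0.06, edgeR adjusted p = 6.51e-12). RPA3, the smallest subunit, had 61.4, 56.2 and 54.6 CPM in knockout libraries, against 25.1, 25.5 and 25.8 CPM in wild-type libraries (1.17 ± 0.07, edgeR adjusted p = 2.55e-11). Both subunits were thus 2.26-fold and 2.25-fold higher, with wide gaps between the genotypes. RPA1, the large subunit that makes most of the contacts with DNA, had 66.3, 70.2 and 68.6 CPM in knockout libraries, against 76.5, 75.2 and 74.5 CPM in wild-type libraries. It fell by 0.14 ± 0.05 (edgeR adjusted p = 0.0203), a 1.10-fold change that was the smallest of the 28 that passed.

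The fall of RPA1 was also the least stable, since it passed in 9 of 14 alternatives, whose adjusted p ran from 0.00291 to 0.0957. DESeq2 gave -0.13 with an adjusted p of 0.0909. Dropping knockout replicate 1 gave -0.12 (adjusted p = 0.0957), dropping knockout replicate 3 gave -0.14 (adjusted p = 0.0581) and dropping wild-type replicate 1 gave -0.13 (adjusted p = 0.0612). With the chromosome medians taken out it stood at 0.11 (adjusted p = 0.0596), where the median of its chromosome 19 was -0.25.

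In the Fanconi core, the ubiquitin ligase that acts on crosslinked DNA, 6 of 8 genes rose, 1 fell and 1 did not pass. Over all genes tested, 37.1% rose and 37.6% fell. FANCF, an adaptor of the complex, had 26.1, 24.8 and 27.3 CPM in knockout libraries, against 12.2, 13.0 and 12.02 CPM in wild-type libraries (1.07 ± 0.08, edgeR adjusted p = 1.93e-09). FANCL, the catalytic subunit, averaged 18.1 ± 0.347 CPM in knockout libraries and 11.0 ± 0.760 CPM in wild-type libraries (0.72 ± 0.09, edgeR adjusted p = 1.59e-06). FANCB, which forms a module with FANCL, was the rarest of the 36 genes, with 19, 25 and 22 reads in knockout libraries, against 7, 11 and 8 in wild-type libraries. Its log2 fold change of 1.36 ± 0.34 (edgeR adjusted p = 0.00165) was the highest of the 36 genes and has the widest error.

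FANCA and FANCG, which bind each other in the core, rose by 0.65 ± 0.11 and 0.26 ± 0.07 on the log2 scale (edgeR adjusted p = 2.36e-05 and 0.00164). The rise of FANCG did not pass with the chromosome medians taken out (0.08, adjusted p = 0.255, the highest of 14 alternatives, which began at 0.000563), where the median of its chromosome 8 was 0.18. FANCC rose by 0.43 ± 0.08 (edgeR adjusted p = 0.000114), whereas FANCE, which sits with FANCC and FANCF in 1 module, fell. With the chromosome medians taken out, FANCA and FANCC still passed, at 0.34 and 0.26 (edgeR adjusted p = 0.00923 and 0.00903). In that setting FANCB, FANCF and FANCL stood at 1.36, 1.33 and 0.76, and FANCE at -0.42. FANCE had 25.5, 23.9 and 21.9 CPM in knockout libraries, against 30.2, 31.5 and 27.2 CPM in wild-type libraries (-0.32 ± 0.08, edgeR adjusted p = 0.00200). FANCM, the translocase that anchors the core to DNA, did not pass, at 12.7 ± 0.467 CPM in knockout libraries and 12.2 ± 1.13 CPM in wild-type libraries (0.06 ± 0.10, edgeR adjusted p = 0.591).

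FANCD2 and FANCI, the clamp that the core marks with ubiquitin, both rose. FANCI had 51.0, 50.9 and 50.7 CPM in knockout libraries, against 27.6, 27.4 and 25.4 CPM in wild-type libraries (0.92 ± 0.07, edgeR adjusted p = 4.71e-10). FANCD2 had 66.1, 63.6 and 67.6 CPM in knockout libraries, against 41.1, 45.2 and 37.5 CPM in wild-type libraries (0.67 ± 0.07, edgeR adjusted p = 5.45e-08). The genotypes were well apart in both genes.

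Of the 6 genes of break sensing and resection, 2 rose, 2 fell and 2 did not pass. These shares, 33.3% in each direction, stand beside 37.1% higher and 37.6% lower over all genes tested. The nuclease and helicase of long-range resection rose, with EXO1, a 5′-to-3′ exonuclease, at 28.5, 34.3 and 32.8 CPM in knockout libraries, against 13.5, 13.3 and 13.7 CPM in wild-type libraries (1.24 ± 0.09, edgeR adjusted p = 4.22e-10). BLM, a helicase that unwinds ends and dissolves joint molecules, averaged 25.7 ± 0.734 CPM in knockout libraries and 14.0 ± 1.86 CPM in wild-type libraries (0.87 ± 0.09, edgeR adjusted p = 1.38e-07). RBBP8, which starts resection with MRE11, fell, at 60.2, 60.7 and 60.0 CPM in knockout libraries, against 78.6, 89.4 and 66.8 CPM in wild-type libraries (-0.38 ± 0.08, edgeR adjusted p = 0.000872). The wild-type libraries of RBBP8 were widely spread, though none reached down to the knockout range. With the chromosome medians taken out RBBP8 stood at -0.75 (edgeR adjusted p = 1.36e-06), where the median of its chromosome 24 was 0.37.

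NBN, the subunit of the MRE11-RAD50-NBN complex that recruits ATM (ENSBTAG00000013225, chromosome 14, 73748382 to 73804245), stood at 13.7, 15.4 and 14.7 CPM in knockout libraries, against 29.1, 29.4 and 26.3 CPM in wild-type libraries. It fell by 0.95 ± 0.08 on the log2 scale (edgeR adjusted p = 9.54e-09). The 301 tested genes of chromosome 14 had a median of -0.82, with 80.1% of them lower in knockout libraries, and with the chromosome medians taken out NBN stood at -0.13 (adjusted p = 0.168, the highest of 14 alternatives, which began at 3.60e-23). MRE11, the nuclease, and RAD50, the tether of the complex, did not pass (0.12 ± 0.08 each, edgeR adjusted p = 0.186 and 0.190). MRE11 passed as higher with the chromosome medians taken out (0.31, adjusted p = 0.00230, over a range up to 0.601), and RAD50 passed as higher without wild-type replicate 2 (0.23, adjusted p = 0.00703, over a range up to 0.902).

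Among the checkpoint genes, ATM, the kinase that answers double-strand breaks, fell. It had 9.47, 11.3 and 13.5 CPM in knockout libraries, against 17.9, 20.3 and 24.4 CPM in wild-type libraries (-0.87 ± 0.13, edgeR adjusted p = 2.21e-05). Its libraries varied more than those of most other genes here, yet the ranges did not meet, and the fall passed in all 14 alternatives. ATR, the kinase that answers stalled replication, did not pass (9.25 ± 0.147 CPM in knockout libraries and 10.4 ± 1.36 CPM in wild-type libraries, edgeR adjusted p = 0.198). TOPBP1, an activator of ATR, rose by 0.41 ± 0.06 (edgeR adjusted p = 5.06e-06), and CHEK1, the kinase downstream of ATR, rose by 0.32 ± 0.07 (edgeR adjusted p = 0.000362). CHEK2, the kinase downstream of ATM, averaged 15.02 ± 1.30 CPM in knockout libraries and 14.9 ± 0.743 CPM in wild-type libraries and did not pass (0.01 ± 0.10, edgeR adjusted p = 0.899).

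Many proteins here bind each other or share a complex, so ratios of counts per kilobase were taken between 9 pairs of partner genes. Each ratio was taken within a library, so it does not depend on scaling, and it describes transcripts only. The RPA2 to RPA1 ratio was 3.44, 3.35 and 3.52 in knockout libraries, against 1.41, 1.47 and 1.24 in wild-type libraries. The PALB2 to BRCA2 ratio was 3.47, 3.39 and 3.24 in knockout libraries, against 1.58, 1.37 and 1.24 in wild-type libraries. The RAD51D to XRCC2 ratio was 0.430, 0.555 and 0.351 in knockout libraries, against 1.60, 2.17 and 3.33 in wild-type libraries, so the more abundant transcript of the pair was XRCC2 in knockout libraries and RAD51D in wild-type libraries. The NBN to MRE11 ratio was 0.540, 0.520 and 0.558 in knockout libraries, against 1.13, 1.26 and 1.02 in wild-type libraries.

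On the log2 scale the BARD1 to BRCA1 ratio was -1.04 ± 0.03 in knockout libraries and -0.85 ± 0.06 in wild-type libraries (SD, n = 3 each). The FANCI to FANCD2 ratio was -0.39 ± 0.05 in knockout libraries and -0.64 ± 0.09 in wild-type libraries. The RPA3 to RPA1 ratio was 1.85 ± 0.12 in knockout libraries and 0.53 ± 0.04 in wild-type libraries. The RAD50 to MRE11 ratio (0.30 ± 0.09 in knockout libraries and 0.29 ± 0.26 in wild-type libraries) and the RAD51C to XRCC3 ratio (0.83 ± 0.13 in knockout libraries and 0.59 ± 0.23 in wild-type libraries) overlapped between genotypes. For the other 7 pairs the genotypes did not overlap, with a two-sided exact permutation p = 0.1 each, the smallest that 3 against 3 libraries allow, and 0.129 after Benjamini-Hochberg adjustment over the 9 pairs. The design therefore could not pass the threshold for any pair. The exact permutation p of the overlapping pairs was 1 for RAD50 to MRE11 and 0.2 for RAD51C to XRCC3.

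**Figure D3:**
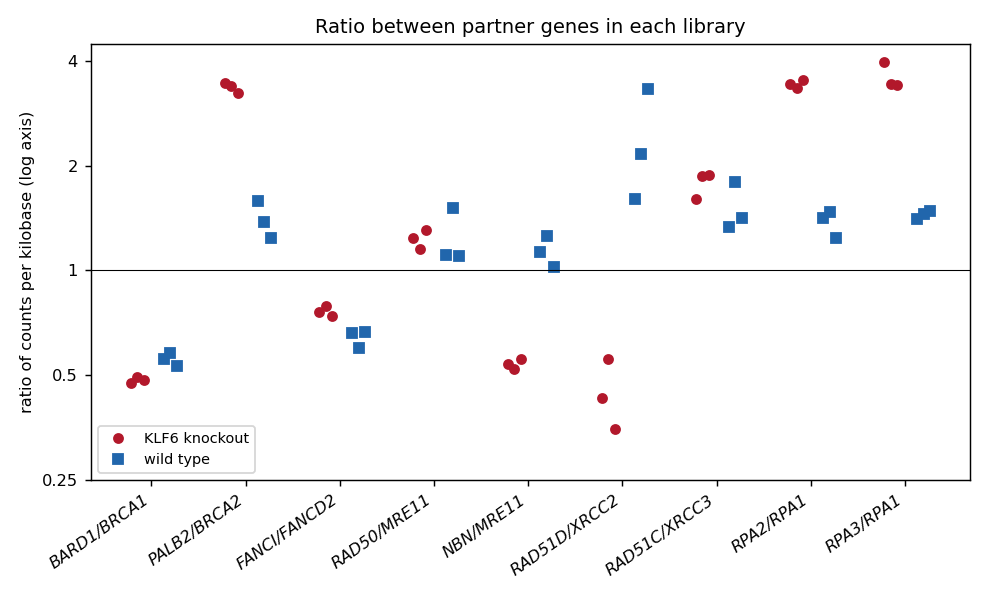
Ratio of counts per kilobase between 9 pairs of partner genes (vertical log axis), 1 point per library, knockout (red circles) left of wild type (blue squares). The RAD51D to XRCC2 ratio lies between 0.351 and 0.555 in knockout and between 1.60 and 3.33 in wild type, on opposite sides of 1, as does the NBN to MRE11 ratio.

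Per length, RPA3 and RPA2 were the most abundant of the 36 transcripts in both genotypes. RPA3 stood at 85.0 ± 5.26 CPM per kilobase in knockout libraries and 37.7 ± 0.546 in wild-type libraries, and RPA2 at 81.2 ± 2.28 CPM per kilobase in knockout libraries and 35.9 ± 3.50 in wild-type libraries. These neighbours in the order did not differ beyond their spread in either genotype. RPA1 followed, at 23.6 ± 0.678 CPM per kilobase in knockout libraries and 26.1 ± 0.349 in wild-type libraries. In knockout libraries FANCF came next (21.7 ± 1.03 CPM per kilobase), whereas in wild-type libraries RBBP8 did (16.1 ± 2.32 CPM per kilobase). At the other end stood FANCB, below ATR and BRCA2 in knockout libraries and below XRCC2 and ATR in wild-type libraries, at 0.422 ± 0.0463 CPM per kilobase in knockout libraries and 0.163 ± 0.0352 in wild-type libraries. NBN ranked 21 in knockout libraries and 10 in wild-type libraries, the widest move down the order.

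**Figure D4:**
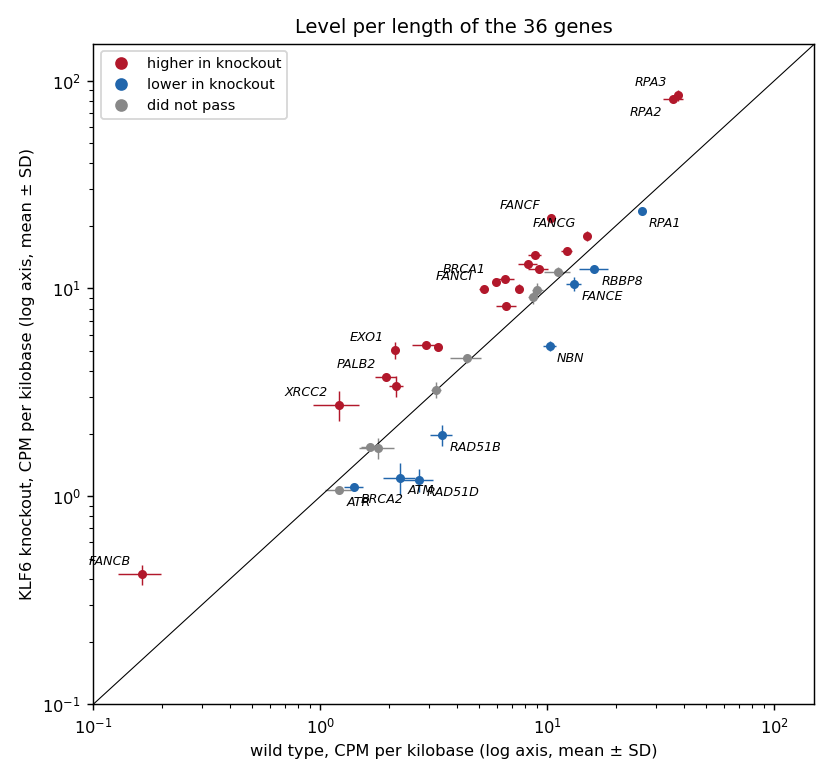
Mean level per length of each of the 36 genes in knockout (vertical) against wild type (horizontal), in CPM per kilobase on log axes with SD bars (n = 3 each); points above the line of equality are higher in knockout, and colours give the test result. RPA3 and RPA2 lie at the top, RPA1 just below the line at 23.6 against 26.1 CPM per kilobase, and FANCB at the bottom left.

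On the chromosomes that hold the most of these genes, 19 and 21, the genes did not all move alike. Chromosome 19 holds 5 of them, of which BRCA1 (0.85) and RAD51C (0.32) rose, RAD51D (-1.18) and RPA1 (-0.14) fell, and BRIP1 had a log2 fold change of -0.07, beside a chromosome median of -0.25. Chromosome 21 holds 4, of which FANCI and BLM rose, while FANCM and XRCC3 each had a log2 fold change of 0.06, beside a median of 0.08. Both genes rose on chromosome 2 (BARD1 and RPA2), chromosome 4 (XRCC2 and RPA3), chromosome 8 (FANCC and FANCG) and chromosome 29 (CHEK1 and FANCF). On chromosome 1, TOPBP1 rose and ATR did not pass, and on chromosome 15, ATM fell and MRE11 did not pass. With the median of each gene's chromosome taken out, 20 of the 36 genes rose and 5 fell. Over all 13390 genes tested, 4881 rose and 4703 fell in this setting, against 4963 and 5028 without it. Of the 36 genes, BRCA2, NBN and RPA1 were no longer among those that fell. The remaining falls were thus RAD51D, RAD51B, ATM, RBBP8 and FANCE.

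Of the 36 genes, 11 start within 2000 bases of the start of a gene on the opposite strand, and 9 of these head-to-head neighbours were tested. BRCA1 and its neighbour NBR1, an autophagy receptor gene, moved in opposite directions. NBR1 averaged 75.7 ± 1.80 CPM in knockout libraries and 174 ± 2.13 CPM in wild-type libraries (-1.20 ± 0.05, edgeR adjusted p = 8.39e-14). FANCB and MOSPD2 also differed in direction (MOSPD2 at -0.24 ± 0.10, edgeR adjusted p = 0.0383). FANCD2 rose together with EMC3 (0.43 ± 0.05), and RPA1 fell together with SMYD4 (-0.33 ± 0.06). Beside PALB2, DCTN5 did not pass (0.13 ± 0.07, edgeR adjusted p = 0.0981), and beside MRE11, which did not pass, ANKRD49 fell (-0.75 ± 0.14). FKBP3 rose (0.69 ± 0.05, edgeR adjusted p = 8.79e-10) beside FANCM, which did not pass. HSCB beside CHEK2 (0.10 ± 0.12) and ZFYVE21 beside XRCC3 (-0.05 ± 0.08) did not pass, and nor did CHEK2 and XRCC3.

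Transcript length moved with the fold change across all genes, so it was set beside the values. Over 5 length classes of equal size, the median log2 fold change of all genes tested was 0.10 in the shortest and -0.20 in the longest. Of the 36 genes, 16 fall in the longest class, and their median was 0.53. From the shortest class upward, the medians in the other classes were 0.90 (4 genes), 1.18 (1 gene), 0.17 (6 genes) and 0.12 (9 genes). Spearman's correlation between length and log2 fold change was -0.15 over the 36 genes and -0.11 over the 13390 genes tested, given as a description, since genes of the same 6 libraries are not independent.

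Other genes of the pathway also moved in both directions. Of 54 further genes of recombination and Fanconi repair, 50 were in the table and tested, 29 rose and 10 fell, with a median log2 fold change of 0.35. The largest rises were those of DMC1, a recombinase of meiosis, at 1.42 ± 0.318 CPM in knockout libraries and 0.276 ± 0.116 CPM in wild-type libraries (2.34 ± 0.40), of RAD51AP1, which promotes strand invasion (1.51 ± 0.08), and of MAD2L2, a subunit of a translesion polymerase (1.36 ± 0.09). The largest falls were those of WDR48 (-0.77 ± 0.06), ETAA1, an activator of ATR (-0.57 ± 0.08), and the helicase gene HELQ (-0.54 ± 0.19). WDR48 is the cofactor of USP1, the enzyme that removes ubiquitin from FANCD2, and USP1, named here after its value was seen, rose by 0.82 ± 0.06.

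Genes of DNA replication and proliferation, which are commonly read as markers of cycling cells, rose as well. Of 22 such genes, 21 rose and 0 fell (median log2 fold change 0.80), with CCNE1 at 1.60 ± 0.10, CCNB1 at 1.55 ± 0.05 and CCNA2 at 1.41 ± 0.06, and MCM4 was the gene that did not pass (0.07 ± 0.05). Their summed level was 3503 to 3594 CPM in knockout libraries, against 1973 to 2032 CPM in wild-type libraries. Of 19 genes of the E2F family and of the DREAM complex, which control transcription in the cell cycle, 16 rose and 1, E2F5 (-0.70 ± 0.22), fell (median 0.64). E2F1 stood at 69.4 ± 3.16 CPM in knockout libraries and 21.5 ± 1.77 CPM in wild-type libraries, MYBL2 rose by 1.15 ± 0.05 and E2F4 by 1.08 ± 0.06. The part of these genes' rise in that of the repair genes was not tested.

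Other DNA repair pathways are given for comparison, and differences between the lists were not tested. For base excision repair 7 genes rose and 6 fell of 14 (median 0.10), for mismatch repair 3 rose and 2 fell of 7 (median -0.00064), for nucleotide excision repair 4 rose and 5 fell of 13 (median -0.10), and for end joining 5 rose and 8 fell of 17 (median -0.07).

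**Figure D5:**
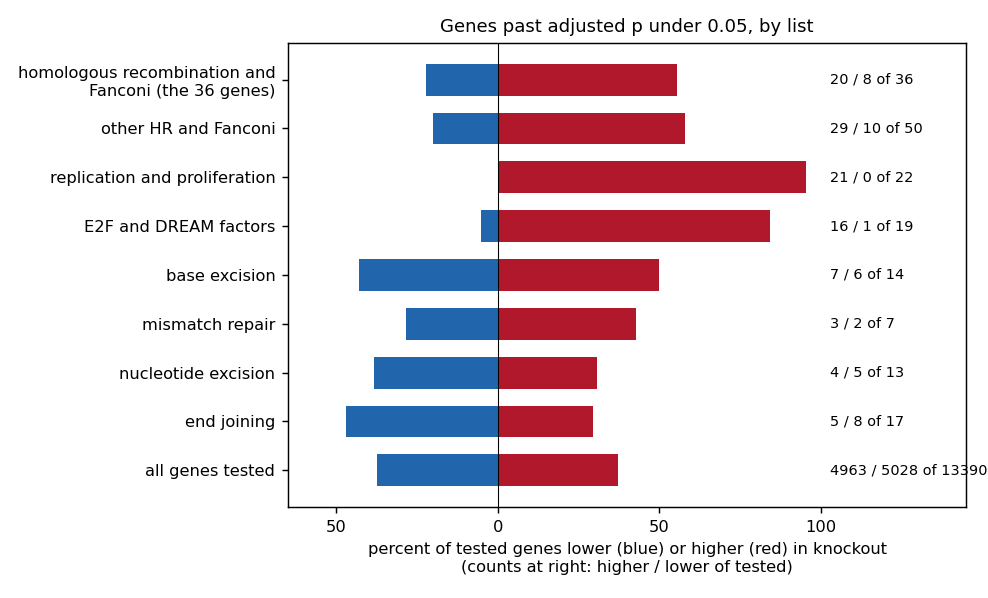
Percent of tested genes past an edgeR adjusted p of 0.05 in each list (horizontal axis), higher in knockout to the right in red and lower to the left in blue, with the counts at the right. For the 36 genes 55.6% rose and 22.2% fell, and for all genes tested 37.1% rose and 37.6% fell.

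With strand use not given in the sources used here, counts of 5 of the genes, CHEK2, FANCA, FANCL, FANCM and FANCI, could hold reads of a gene on the opposite strand. CHEK2 overlaps HSCB, FANCA overlaps ZNF276 (0.49, which rose), FANCL overlaps VRK2 and FANCI overlaps POLG, and HSCB, VRK2 and POLG did not pass. The authors' deposited table, which lists genes up to an adjusted p-value of 0.0499, holds 27 of the 36 genes, and its log2 fold changes of knockout over wild type differ from those here by at most 0.03, with the same sign throughout. DESeq2, run here on the same counts, gave the same 27 log2 fold changes to every digit compared, so the match is not an independent check. RPA1 and the 8 genes that did not pass are the 9 it does not list.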

How the data were processed

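The authors deposited raw counts per gene as whole numbers for 6 libraries, with symbols, coordinates and a gene length in bases. The aligner HISAT2 2.0.5 and the counter featureCounts 1.5.0-p3 are listed, without settings, per the submitters' processing notes. RNA was extracted with TRIzol and made into libraries by the Ion Total RNA-Seq Kit v2, per the labels' protocols. Build and strand setting: not given in the sources used here. A deposited comparison table holds a signal (counts divided by 1 factor per library, checked to a relative deviation of 5.11e-15), log2 fold changes and p-values by the authors, whose test is not stated in the labels or file headers. For the 27 of the 36 genes it lists, its log2 fold changes equal those of DESeq2 run here. The unnamed extra loci, 0.807% to 0.884% of counts, stayed in the fit.

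All rows were fitted with edgeR 4.0.16 (R 4.3.3, limma 3.58.1): TMM scaling, filterByExpr (minimum count 10, minimum total 15), robust quasi-likelihood test, Benjamini-Hochberg adjustment, threshold 0.05. SEs were computed as the absolute log2 fold change divided by the root of F. Levels are CPM on the scaled library, as mean ± SD over 3 libraries. Alternatives included DESeq2 1.42.0. The fits were tested on simulated data. Ratios used counts plus 0.5 per kilobase.

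The 36 genes and the other lists were chosen with earlier results of these data known. All 36 genes are named; of each other repair or cell cycle list, the up to 3 genes per direction with the largest change that passed, and always E2F1, MYBL2 and KLF6; some genes under this rule, and the leukocyte marker list, are not reported here. Of the further pathway genes SWI5, HROB, FAAP20 and H2AX, and of the other lists UNG and LGB, had no row under that symbol. Wild-type replicate 3 stood apart: its squared distance from wild-type replicates 1 and 2 was 9.14 and 9.12 times what counting error gives, beside 2.27 to 2.79 for all other pairs within a genotype. Promoter motifs were not analysed here.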

Additional observations from a re-analysis of the deposited data

How the results depend on the processing

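Of the 36 genes, 30 kept their side of the threshold in all 14 alternatives, and 6 (RPA1, NBN, BRCA2, FANCG, MRE11 and RAD50) did not in at least 1. With the chromosome medians taken out, 5 of the 36 genes fell, against 8, and over all genes tested 4703 fell, against 5028. Of the 8 that had fallen, BRCA2 (0.094) and RPA1 (0.11) changed sign. Of the genes that did not pass, CHEK2, BRIP1, XRCC3, RAD52 and FANCM changed sign with the chromosome medians taken out, and CHEK2, BRIP1 and XRCC3 also in at least 1 other alternative. With scaling by library size only the median log2 fold change of the 36 genes was 0.27, against 0.32, while leaving out a library gave 0.31 to 0.33, and the median of all genes was -0.06 with library size only, against -0.01. Leaving out a library left 20 to 21 of the 36 genes higher and 7 to 8 lower. Over all genes tested it left 4746 to 5115 higher and 4746 to 5019 lower. The RAD50 to MRE11 log2 ratio difference, 0.01, ran between -0.069 and 0.16 with a library left out, and the differences of the other 8 pairs kept their sign. Symbols stood on 1 row each, so summing rows could change nothing. Replicate numbers are shared between genotypes, but same-numbered libraries did not deviate together (correlations -0.04, 0.07 and -0.02). With a replicate block 20 of the 36 genes rose and 8 fell, and over all genes 4938 rose and 4956 fell, against 4963 and 5028. The partner ratios under the replicate block kept their differences, and 3 pairs cannot give a sign-flip permutation p under 0.25. Depth limits FANCB and RAD51B most, with 7 to 25 and 35 to 79 reads per library.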

Other observations

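In end joining, the route that seals breaks without a template, the largest falls that passed were those of SHLD2, a shieldin subunit that limits resection (-1.44 ± 0.21), PRKDC, the catalytic subunit of the DNA-dependent kinase (-1.36 ± 0.11), and NHEJ1 (-1.001 ± 0.12). SHLD3, another shieldin subunit, rose (0.84 ± 0.12), as did PARP1, a sensor of strand breaks (0.62 ± 0.04), and the polymerase gene POLM (0.52 ± 0.18). PRKDC lies on chromosome 14, where the median of all tested genes was -0.82, and SHLD2 on chromosome 28, where it was -0.57. PAXX had no reads in any library.

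In base excision repair, the glycosylase gene OGG1 (1.08 ± 0.10), the polymerase gene POLB (1.05 ± 0.09) and the scaffold gene XRCC1 (0.89 ± 0.07) rose, while the glycosylase genes MUTYH (-1.05 ± 0.14), SMUG1 (-0.72 ± 0.08) and NEIL2 (-0.56 ± 0.12) fell. Nucleotide excision repair genes with the largest rises were ERCC8 (0.86 ± 0.12), RAD23B (0.72 ± 0.05) and ERCC2 (0.35 ± 0.06), and those with the largest falls were DDB2 (-0.94 ± 0.08), ERCC5 (-0.78 ± 0.10) and ERCC6 (-0.75 ± 0.11). In mismatch repair PMS1 (0.32 ± 0.10) and PMS2 (0.30 ± 0.10) rose, and MLH3 (-0.87 ± 0.18) and MSH6 (-0.16 ± 0.06) fell.

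In the clamp that activates ATR, RAD1 rose by 1.22 ± 0.12, RAD9A by 0.54 ± 0.06 and HUS1 by 0.43 ± 0.09, and these 3 genes were named after their values were seen. SEM1, a small protein bound to BRCA2, was the least even of the further pathway genes. It stood at 17.4, 16.1 and 52.2 CPM in knockout libraries, against 26.3, 15.003 and 77.9 CPM in wild-type libraries, with the third library of each genotype far above the others, and it did not pass (edgeR adjusted p = 0.656).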
